A study of Homo sapiens with 54 samples.

Results

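ASNS, PHGDH, PSAT1, PSPH, SHMT2, MTHFD2, ALDH1L2, PYCR1, ALDH18A1 and PCK2 encode enzymes that make serine, asparagine, proline, one-carbon units and phosphoenolpyruvate. These 10 genes were chosen by name, as enzymes commonly listed as targets of the transcription factor ATF4, from 38137 genes measured by RNA sequencing in HEK293T cells. All 10 were among the 15378 genes that passed the filter on low counts, so no member was lost, and each is described in all 18 groups. HEK293T is a human embryonic kidney line. Its cells were transiently transfected with a plasmid for RfxCas13d, an RNA-guided RNA nuclease (WT), or for its high-fidelity forms N2V7 and N2V8, which were engineered to cut fewer bystander RNAs. The crRNA given with each effector was non-targeting (NTG), or crRNA-13, which targets C9ORF72 (S13), or an additional one that the labels call a reference (S3, S4 or S7). The other groups were untransfected cells (UT) and cells treated with the antisense oligonucleotide ASO2 or ASO4, for which the labels name no delivery-only control. Every group had 3 libraries, 54 in all, all of wild-type genotype, and the labels give harvest at 48 h (the paper describes a longer interval after transfection). For N2V8_S13 the treatment label spells the effector "N2V87", and the title was followed.

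Serine is made from a glycolytic intermediate in a short chain of reactions, and its side carbon is then passed to folate in the mitochondrion, where it feeds purine and formate production. Asparagine is made from aspartate, proline from glutamate, and phosphoenolpyruvate from oxaloacetate. When amino acids run short or eIF2 is phosphorylated for another reason, translation of ATF4 rises and many of these genes are induced together, which is why they are read as a group in cultured cells.

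Libraries held 9546826 to 15099153 estimated counts. Levels are given as library-scaled counts by the TMM method (CPM) and can be compared between groups but not between genes, since no lengths were used. The fit also carried 1 factor for variation that the groups do not explain (RUVr). Genes were called where the higher group exceeded the lower by over 25% and edgeR's quasi-likelihood test gave an adjusted p under 0.05 over all genes. C9orf72 itself was 10.5, 11.9 and 10.6 CPM with ASO4 and 21.9 to 34.8 CPM in the other 51 libraries, a sum over transcript variants. The second N2V7_S4 library differed most from its group (SD of log2 residuals 0.523, and 0.269 or less in the other groups), and results that rest on it are given with and without it. Since whole cultures were sequenced, a change in every cell and a change in a part of the cells cannot be told apart.

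The serine branch begins with PHGDH, which oxidises 3-phosphoglycerate (Entrez 26227, GRCh38 chromosome 1, 119711934 to 119744215), continues with the transaminase PSAT1 (Entrez 29968, chromosome 9, 78297125 to 78330093) and ends with the phosphatase PSPH (Entrez 5723, chromosome 7, 56011064 to 56051444). SHMT2 (Entrez 6472, chromosome 12, 57229711 to 57234935) splits serine into glycine and a folate-bound carbon in the mitochondrion. MTHFD2 (Entrez 10797, chromosome 2, 74198615 to 74217565) oxidises that carbon, and ALDH1L2 (Entrez 160428, chromosome 12, 105019790 to 105084458) releases it as carbon dioxide while making NADPH. ASNS (Entrez 440, chromosome 7, 97851677 to 97928441) is asparagine synthetase. ALDH18A1 (Entrez 5832, chromosome 10, 95605941 to 95656711) begins proline synthesis and PYCR1 (Entrez 5831, chromosome 17, 81932391 to 81937300) completes it. PCK2 (Entrez 5106, chromosome 14, 24094171 to 24104125) is the mitochondrial phosphoenolpyruvate carboxykinase.

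The bases around the start sites were searched for the letters of the C/EBP-ATF element, TGATGNAA, and of the CRE core, TGACGT, on both strands. In RefSeq promoter entries of GRCh38.p14, which hold 250 bases before and 50 after a start, 6 of the 10 genes had 7 entries. Each entry was searched over its whole length. Of these, 1 held TGATGNAA, against 3.62% of 35114 promoters, and 1 held TGACGT, against 7.98%. ASNS and ALDH18A1 are shown because they carry those letters, and have the second widest and the narrowest range over groups described below. Matched letters are in capitals, 60 bases before the start in ASNS and 6 bases before it in ALDH18A1. The ALDH18A1 entry has 2 further matches of the CRE core on the other strand, 1 of them not wholly before the start. Both genes lie on the minus strand, and the stretches are chr7:97872433-97872512 and chr10:95656712-95656759.
ASNS: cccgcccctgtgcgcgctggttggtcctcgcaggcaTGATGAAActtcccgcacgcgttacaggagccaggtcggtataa
ALDH18A1: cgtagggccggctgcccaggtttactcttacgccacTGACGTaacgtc

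Over the 18 groups, PCK2 had the widest range and ALDH18A1 the narrowest. Mean PCK2 was 3.34-fold higher in WT_S3 than in WT_S7, and mean ASNS was 2.73-fold higher in ASO2 than in WT_S7. The corresponding ratios of highest to lowest group mean were 2.09 for ALDH1L2, 1.97 for PSAT1, 1.78 for SHMT2, 1.73 for PHGDH, 1.68 for PSPH, 1.61 for PYCR1 and 1.54 for MTHFD2. For ALDH18A1 the ratio was 1.20. Without replicate 2 of N2V7_S4, left out after the data were seen, the PYCR1 ratio was 1.31 with N2V7_NTG as its lowest group, and the lowest groups of the other 9 genes were as given here. WT_S7 was the lowest group for 6 of the 10 genes, and N2V7_NTG, N2V8_NTG, N2V7_S4 and N2V7_S3 were lowest for MTHFD2, ALDH1L2, PYCR1 and ALDH18A1. Most neighbours in these orders could not be separated: for ASNS and PCK2, 16 of 17 gaps between adjacent group means were within the larger SD of the pair.

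For ASNS, the gap that exceeded the SD lay between WT_S13 at 601.3 ± 68.0 CPM (SD, n = 3) and N2V7_NTG at 417.7 ± 78.1 CPM. Below it stood N2V7_NTG, N2V8_NTG and WT_S7, and the other 15 groups stood above it. PCK2 showed the same 3 groups at its lower end, with means of 74.4 ± 13.2, 64.97 ± 4.13 and 54.4 ± 1.63 CPM. The plot of levels in every library and the map of group means relative to UT show both features.

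**Figure D1:**
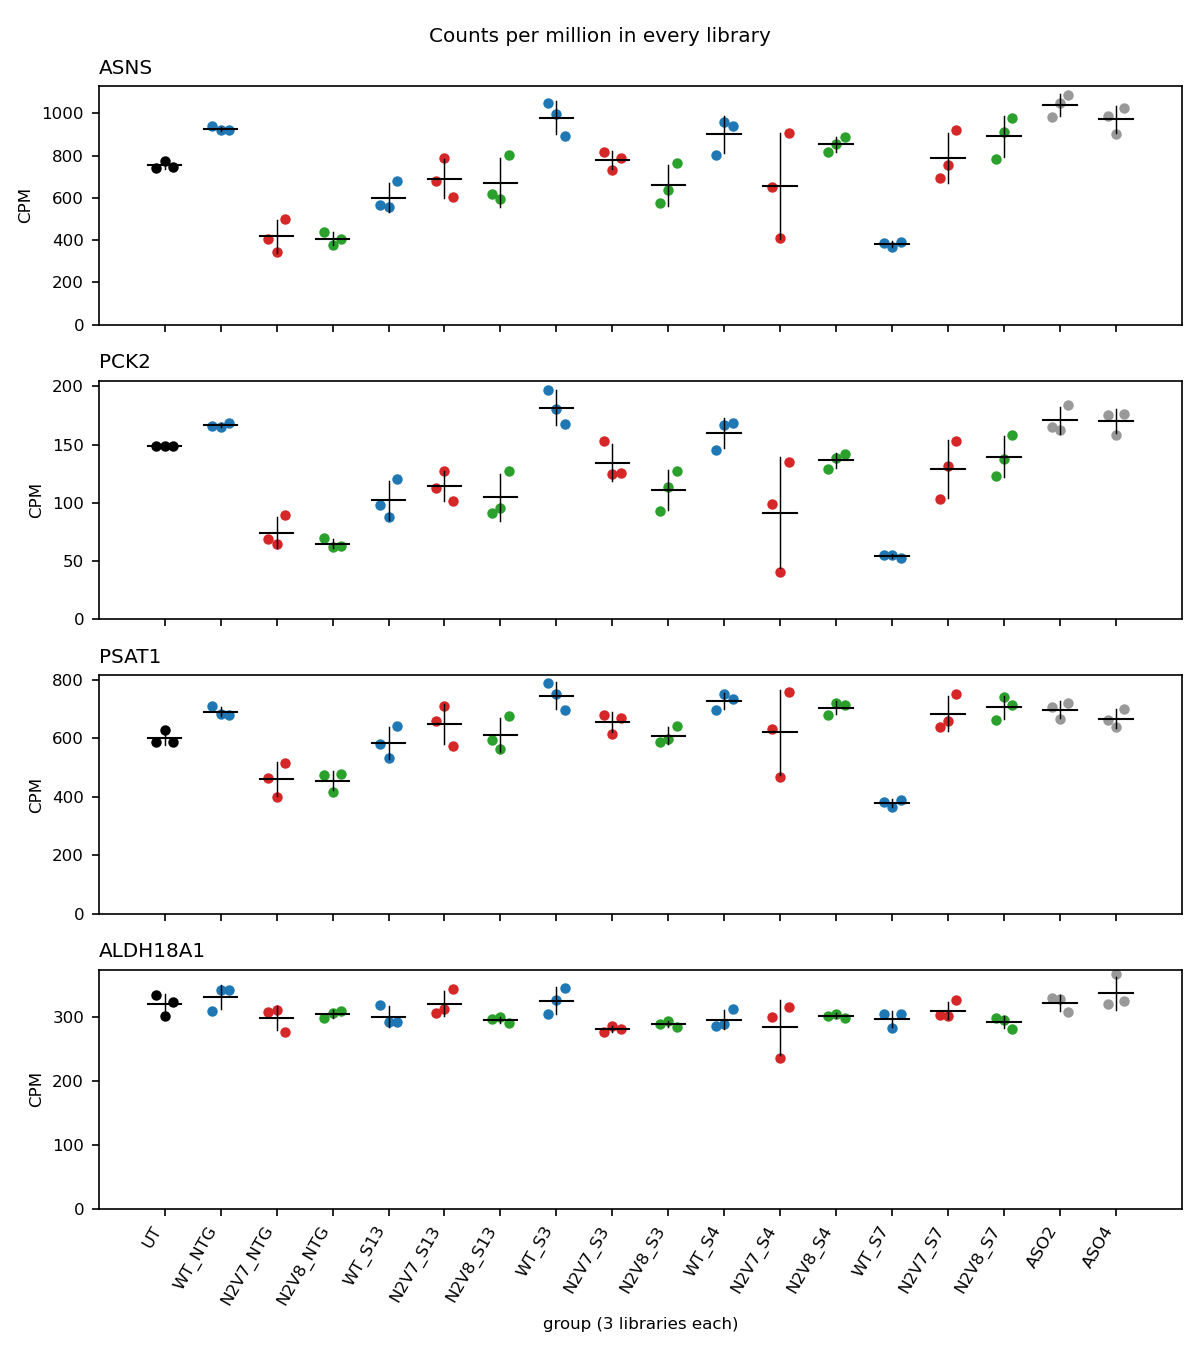
CPM (vertical axis, from 0) of ASNS, PCK2, PSAT1 and ALDH18A1 in each of the 18 groups (horizontal axis), where a point is 1 library, black lines give mean and SD of 3, and colours mark UT (black), WT (blue), N2V7 (red), N2V8 (green) and oligonucleotides (grey). ASNS, PCK2 and PSAT1 are low in N2V7_NTG, N2V8_NTG and WT_S7, while ALDH18A1 group means stay within 1.20-fold.

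**Figure D2:**
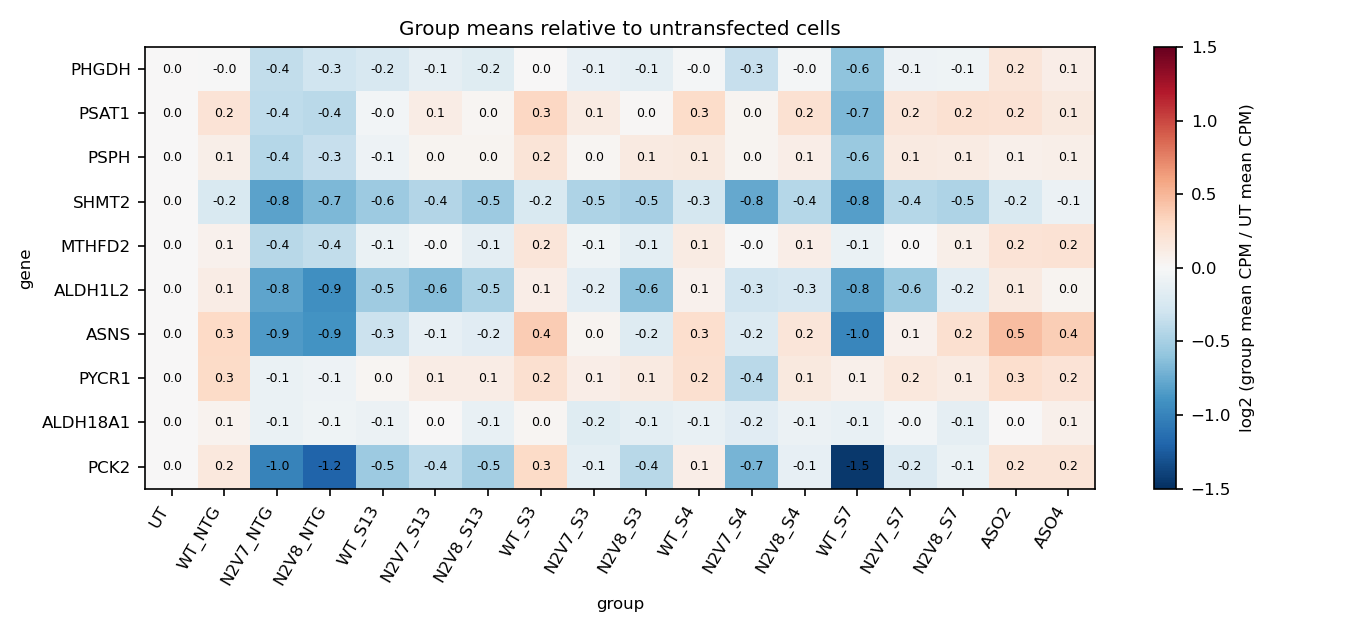
Group mean of each gene (rows) in each group (columns) as log2 of its ratio to the UT mean; red is higher and blue lower than UT. The median over the 10 genes is −0.64 in WT_S7, −0.42 in N2V7_NTG and −0.39 in N2V8_NTG, and 0.10 in WT_NTG.

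With the non-targeting crRNA, which was designed without a target, most of these genes were lower with N2V7 or N2V8 than with WT RfxCas13d. ASNS stood at 938, 919 and 922 CPM in the WT_NTG libraries, at 407, 346 and 501 CPM in N2V7_NTG and at 438, 378 and 403 CPM in N2V8_NTG. No library of either high-fidelity group reached the lowest WT_NTG library. The difference was −1.15 ± 0.12 on the log2 scale (SE; adjusted p = 1.99e-09) for N2V7 and −1.19 ± 0.12 (adjusted p = 1.08e-09) for N2V8. PCK2 stood at 166, 165 and 169 CPM in WT_NTG, 69.1, 64.6 and 89.4 CPM in N2V7_NTG and 69.7, 62.0 and 63.2 CPM in N2V8_NTG, again without overlap, and fell by 1.16 and 1.36. ALDH1L2, the NADPH-producing folate enzyme, was at 137, 137 and 141 CPM, 74.9, 70.1 and 77.3 CPM and 70.0, 64.9 and 67.5 CPM in the same order of groups. Its changes were −0.90 ± 0.09 and −1.03 ± 0.09.

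In N2V7_NTG, 9 of the 10 genes were called lower than in WT_NTG and none higher, where 10.7% of all genes were called. In N2V8_NTG, 8 were called lower and none higher, beside 23.8% of all genes. The median over the 10 genes was −0.54 for N2V7 and −0.44 for N2V8, against 0.00 and 0.01 over all genes tested. Among the serine enzymes, PSAT1 fell by 0.58 and 0.60, and PSPH by 0.52 and 0.44. PHGDH fell by 0.36 with N2V7 and stayed under the fold minimum with N2V8 (−0.30 ± 0.05, adjusted p = 7.55e-07). The mitochondrial folate enzymes SHMT2 (−0.57 and −0.44) and MTHFD2 (−0.48 and −0.44) fell as well. PYCR1 fell by 0.38 and 0.36, and these 2 calls ended when the factor of unwanted variation was left out (adjusted p = 0.157 and 0.185). ALDH18A1 was not called in either comparison (−0.15 and −0.12). N2V8_NTG and N2V7_NTG shared the WT_NTG libraries as control. Set against each other, they gave 0 calls among the 10 genes with edgeR, DESeq2 and limma-trend, where 6.36% of all genes were called, and 1 gene had an unadjusted p under 0.05.

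Measured from untransfected cells, the direction was the same for the high-fidelity forms and not for WT RfxCas13d. ASNS was at 743, 773 and 745 CPM in UT, above both high-fidelity NTG groups and below every WT_NTG library. Of the 10 genes, 8 were called lower in N2V7_NTG than in UT (20.8% of all genes called) and 7 in N2V8_NTG (29.9%), with none higher. In WT_NTG, edgeR, DESeq2 and limma-trend each called 0 of the 10 (5.09% of all genes called by edgeR), although 4 had an unadjusted p under 0.05. ASNS was 0.30 ± 0.12 higher there (adjusted p = 0.0502) and PYCR1 was 0.28 ± 0.05 higher (adjusted p = 2.04e-06, under the fold minimum). SHMT2 was the exception in rank, with its highest mean in UT at 479, 462 and 455 CPM, and its difference in WT_NTG was −0.23 ± 0.05, adjusted p = 0.000194. UT cells received no plasmid, so effector, crRNA and transfection cannot be told apart in these comparisons.

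The labels set crRNA-13 beside the non-targeting crRNA and call the other guides references. The comparison of crRNA-13 with NTG went in opposite directions in WT cells and in cells with a high-fidelity form. In WT cells 3 of the 10 genes fell and none rose, where 10.8% of all genes were called. ASNS went to 568, 557 and 679.6 CPM in WT_S13 from the WT_NTG values above, a change of −0.62 ± 0.12, adjusted p = 0.000169. PCK2 went to 97.7, 88.1 and 121 CPM (−0.70 ± 0.12, adjusted p = 2.9e-05) and ALDH1L2 to 84.3, 82.7 and 97.4 CPM (−0.65 ± 0.08, adjusted p = 3.06e-07). None of these 9 WT_S13 values reached its WT_NTG range. All 10 estimates were below 0, with a median of −0.25 against 0.00 over all genes tested, and 5 more genes had an adjusted p under 0.05 with a change under the fold minimum. SHMT2 was the nearest of them, at −0.32 ± 0.05, and was called by DESeq2.

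In N2V7 cells, crRNA-13 raised 6 of the 10 genes and lowered none, where 11.4% of all genes were called and most of those were lower. ASNS was at 681, 786 and 602 CPM in N2V7_S13, each above the highest N2V7_NTG library (0.72 ± 0.12, adjusted p = 2.64e-05). PCK2 was at 113, 127 and 102 CPM (0.62 ± 0.12, adjusted p = 0.000342). PSAT1 was at 658, 708 and 574 CPM against 465, 401 and 515 CPM with NTG (0.49 ± 0.08, adjusted p = 8.6e-06). For all 3 the groups did not overlap. PSPH (0.47 ± 0.09), MTHFD2 (0.38 ± 0.06) and SHMT2 (0.36 ± 0.05) rose too, and the median over the 10 genes was 0.37, against 0.01 over all genes. In a fit of these 6 libraries alone without the factor, the estimates were 0.72, 0.61 and 0.48 for ASNS, PCK2 and PSAT1 and their calls ended (adjusted p = 0.0737, 0.0657 and 0.0783). The SHMT2 call ended when the factor was left out of the full fit (adjusted p = 0.0756), and the SHMT2 and MTHFD2 calls ended without replicate 2 of N2V7_NTG (0.31 and 0.32), which left 4 of the 6. The share of ribosomal RNA in the counts was 4.17% to 4.42% with S13 and 1.76% to 3.07% with NTG, and its part in these changes was not tested.

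In N2V8 cells, 5 genes rose and none fell, beside 2.44% of all genes called. ASNS was at 616, 596 and 804 CPM in N2V8_S13 (0.72 ± 0.12, adjusted p = 2.76e-05), PCK2 at 91.3, 95.1 and 128 CPM (0.68 ± 0.13, adjusted p = 0.000136) and ALDH1L2 at 82.29, 86.07 and 108.7 CPM (0.45 ± 0.09, adjusted p = 0.000304). Replicate 3 of N2V8_S13 was the highest of its group for all 3. Without it the ALDH1L2 change was 0.32 and the call ended, as did the PSPH call (0.31), while leaving out replicate 2 of N2V8_NTG ended the PSPH call as well (0.30). PSAT1 rose by 0.42 ± 0.08 and PSPH by 0.39 ± 0.09 with all libraries. The median over the 10 genes was 0.31, against 0.00 over all genes. The ribosomal share was 3.98% to 4.96% with S13 and 1.81% to 3.52% with NTG, and its part was not tested.

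**Figure D3:**
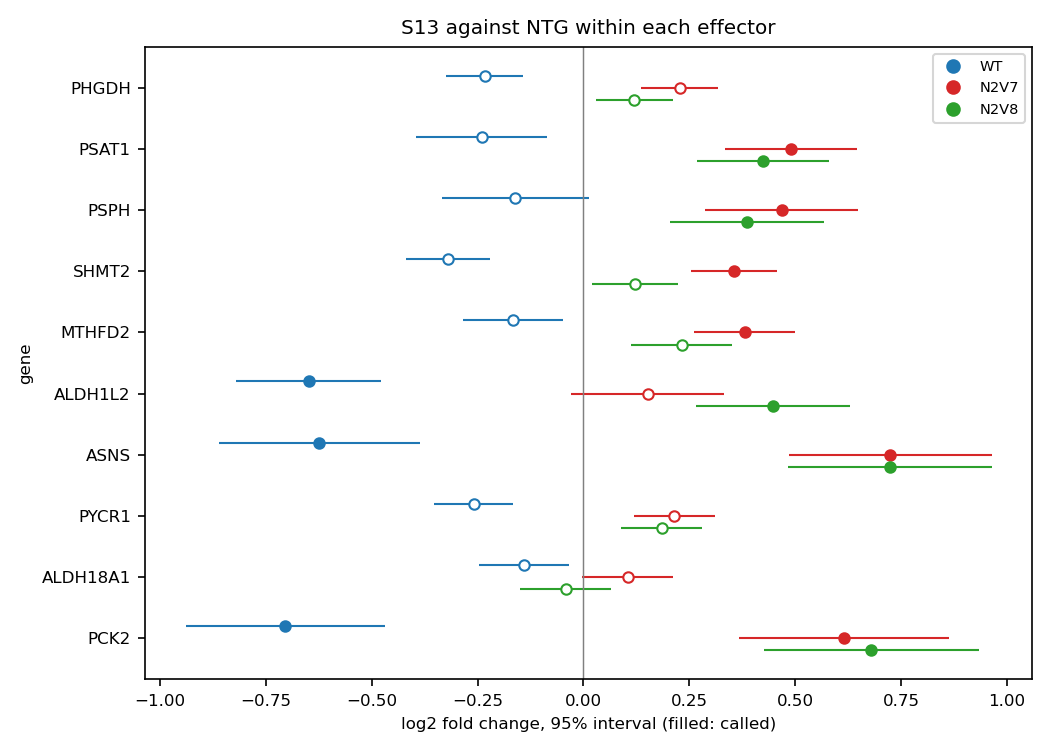
Log2 fold change of S13 against NTG (horizontal axis) for each gene (vertical axis) with WT (blue), N2V7 (red) and N2V8 (green); lines are 95% intervals and filled points passed the call thresholds. Called points lie at −0.70 to −0.62 for WT and at 0.36 to 0.72 for the high-fidelity forms.

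The difference in the crRNA-13 effect itself was tested as an interaction. Between N2V7 and WT, 9 of the 10 genes were called, all with the more positive effect in N2V7, where 14.9% of all genes were called. Between N2V8 and WT, 9 were called in the same direction, beside 18.3% of all genes. The differences were largest for ASNS (1.35 ± 0.17 and 1.35 ± 0.17) and PCK2 (1.32 ± 0.17 and 1.38 ± 0.17), and ALDH1L2 followed at 0.80 ± 0.12 and 1.10 ± 0.12. ALDH18A1 was the member not called (0.24 ± 0.08, adjusted p = 0.0149, and 0.10 ± 0.08). Without the factor, the calls of PYCR1 in both and of PHGDH and SHMT2 in N2V8 ended. N2V8 and N2V7 did not differ by the call rule in any of the 10 genes with edgeR, DESeq2 or limma-trend (14.2% of all genes called by edgeR), with 2 genes at an unadjusted p under 0.05 and SHMT2 at −0.23 ± 0.07, adjusted p = 0.0139. Both differences from WT use the same WT libraries, and each contains the NTG difference described above.

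When the effectors were compared at crRNA-13 instead, a comparison added after the data were seen, none of the 10 genes was called by edgeR, DESeq2 or limma-trend. The share of all genes called by edgeR was 6.99% for N2V7 against WT, 2.31% for N2V8 against WT and 1.81% for N2V8 against N2V7, and 2, 0 and 2 of the 10 had an unadjusted p under 0.05. Over the 3 comparisons the estimates ran from −0.13 to 0.20, and their 95% intervals reached from −0.37 to 0.43. Mean ASNS differed 2.28-fold between the highest and lowest effector with NTG and 1.15-fold with S13. For PCK2 these ratios were 2.56 and 1.12, and for ALDH1L2 they were 2.05 and 1.12. ALDH18A1 had ratios of 1.11 and 1.09. The 3 S13 groups thus lay between the WT_NTG group and the high-fidelity NTG groups for ASNS, PCK2 and ALDH1L2.

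**Figure D4:**
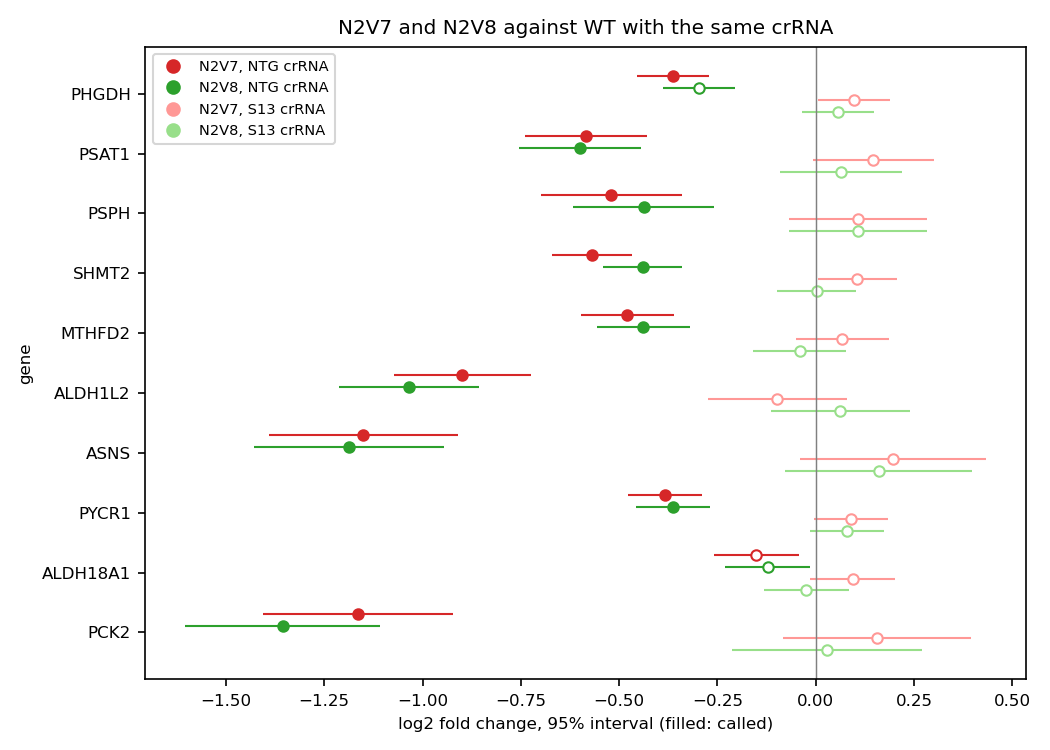
Log2 fold change of N2V7 (red) and N2V8 (green) against WT with the same crRNA (horizontal axis) for each gene (vertical axis), with NTG in dark and S13 in light shades; lines are 95% intervals and filled points passed the call thresholds. The NTG points lie at −1.36 to −0.12 and the S13 points at −0.10 to 0.20.

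From untransfected cells, a comparison also added afterwards, a few members were called lower in the S13 groups. ALDH1L2, PCK2 and SHMT2 were called lower in each of WT_S13, N2V7_S13 and N2V8_S13, and ASNS was called lower in WT_S13 (−0.33 ± 0.12, adjusted p = 0.0245). SHMT2 differed from UT by −0.55, −0.44 and −0.55 and ALDH1L2 by −0.54, −0.64 and −0.48 in that order. The counts of 4, 3 and 3 of the 10 genes stood beside 21.5%, 27.9% and 21.1% of all genes called. The last 2 counts are near that share and are not read as results about the members. The medians over the 10 genes were −0.17, −0.08 and −0.15 in the same order, against 0.00 over all genes. The ASNS call ended without the factor (adjusted p = 0.115), as did the PCK2 call in N2V7_S13 (adjusted p = 0.146). The ASNS call also ended without replicate 2 of UT or replicate 1 or 2 of WT_S13, and that PCK2 call without replicate 3 of N2V7_S13. These comparisons share the UT libraries, so a gene called in all of them is not a set of separate results.

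With the additional crRNAs, members rose in the high-fidelity cells and, with S7, fell in WT cells. In WT cells neither S3 nor S4 changed any of the 10 genes by the call rule in edgeR, DESeq2 or limma-trend (2.74% and 2.67% of all genes called by edgeR), and 0 and 1 had an unadjusted p under 0.05. With S7, 7 of the 10 fell, beside 19.2% of all genes. For PCK2 and ASNS the WT_S7 and WT_NTG libraries did not overlap. PCK2 was at 55.3, 55.4 and 52.5 CPM (−1.61 ± 0.12, adjusted p = 4.09e-12) and ASNS at 387, 367 and 389 CPM (−1.28 ± 0.12, adjusted p = 3.66e-10). The serine enzymes PSAT1 (−0.87 ± 0.08), PSPH (−0.64 ± 0.09) and PHGDH (−0.60 ± 0.05) fell together with SHMT2 (−0.60 ± 0.05) and ALDH1L2 (−0.90 ± 0.09). MTHFD2, PYCR1 and ALDH18A1 had adjusted p under 0.05 with changes of −0.17, −0.21 and −0.16, under the fold minimum.

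In N2V7 cells, S3 raised 7 of the 10 genes (4.15% of all genes called) and S7 raised 6 (14.3%), with none lower. In N2V8 cells, S3 raised 4 (3.07%), S4 raised 6 (6.15%) and S7 raised 6 (7.33%), again with none lower. ASNS was at 693, 756 and 920.5 CPM in N2V7_S7 (0.92 ± 0.12, adjusted p = 3.16e-07) and at 786, 911 and 976 CPM in N2V8_S7 (1.13 ± 0.12, adjusted p = 5.75e-09). PCK2 rose by 0.85 and 0.79 with S3 and S7 in N2V7 cells and by 0.77, 1.07 and 1.09 with S3, S4 and S7 in N2V8 cells. PSAT1 and PSPH rose in all 5 of these comparisons, by 0.42 to 0.63 and 0.44 to 0.57. In a fit of the compared libraries alone, the ASNS and PCK2 calls for N2V7_S7 ended (adjusted p = 0.0614 and 0.107). Without the factor in the full fit, the SHMT2 calls for N2V7_S3 and N2V7_S7 ended (adjusted p = 0.104 and 0.0606). Ribosomal RNA made up 3% to 4.86% of counts with S7 in N2V7 cells, and its part was not tested. All crRNAs of one effector share its NTG libraries, so these comparisons are not independent of each other or of those with S13.

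N2V7_S4 has to be read with and without its replicate 2. ASNS in its libraries was at 649, 410.2 and 908 CPM, PCK2 at 99.2, 40.8 and 135 CPM and PYCR1 at 145, 48.0 and 192 CPM, with the second library lowest for all 3. With all libraries 5 genes were called higher and PYCR1 lower than in N2V7_NTG (24.2% of all genes called). The PYCR1 change was −0.51 ± 0.05, and without replicate 2 it was 0.08 (adjusted p = 0.494). The factor came from the residuals, with 95.6% of its squared weights in N2V7_S4. An SE for this group therefore leaves out the spread between its libraries that the factor took up. Without that library 6 genes were called higher and none lower, PCK2 moved from 0.14 to 0.65 and ASNS from 0.59 to 0.90. In a fit of the compared libraries alone, 1 of the 6 calls was left, that of ALDH1L2.

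**Figure D5:**
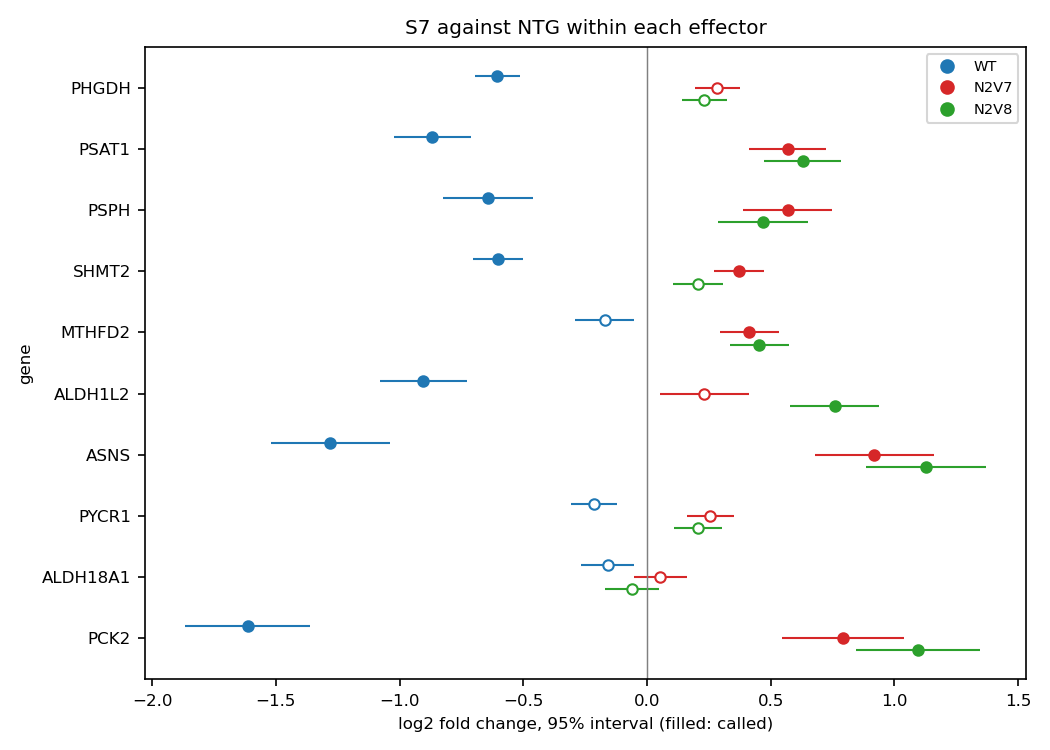
Log2 fold change of S7 against NTG (horizontal axis) for each gene (vertical axis) with WT (blue), N2V7 (red) and N2V8 (green); lines are 95% intervals and filled points passed the call thresholds. WT points lie at −1.61 to −0.16, and the called points of the high-fidelity forms lie at 0.37 to 1.13.

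The interaction terms put sizes on that split. For S7, 9 genes were called between N2V7 and WT and 9 between N2V8 and WT, all more positive in the high-fidelity form, beside 25.4% and 29.2% of all genes. PCK2 differed by 2.41 ± 0.17 and 2.71 ± 0.18, and ASNS by 2.20 ± 0.17 and 2.41 ± 0.17. Between N2V8 and N2V7, ALDH1L2 was the 1 member called (0.53 ± 0.13, adjusted p = 0.00195, where 18% of all genes were). For S3, the counts were 6 for N2V7 (6.46%) and 3 for N2V8 (5.67%) against WT. Without replicate 2 of N2V7_NTG, the N2V7 calls of PSAT1 (0.31), PSPH (0.26) and SHMT2 (0.28) ended, which left 3 of the 6. The PSPH call in N2V8 ended in 4 fits with 1 library left out. Between N2V8 and N2V7 they were 0 with edgeR and DESeq2 and 1 with limma-trend (ALDH1L2, −0.33), beside 0.819% of all genes with edgeR and 2 of the 10 at an unadjusted p under 0.05. For S4, 6 genes were called more positive in N2V8 than in WT (9.78%). N2V7 against WT gave 5 more positive and 1 more negative (19.6%), and N2V8 against N2V7 gave 3 more positive (20.6%). Without replicate 2 of N2V7_S4 these last counts were 7 and 0, and 0. Without replicate 2 of N2V7_NTG, the N2V7 calls of MTHFD2 (0.28), PSAT1 (0.25) and PSPH (0.32) against WT ended, so that 2 more positive and 1 more negative were left. Without the factor, the PYCR1 calls for S7 ended (adjusted p = 0.281 and 0.349), as did those of PCK2 for S3 (0.0933 and 0.145) and of ASNS for S3 in N2V8 (0.0659).

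Neither oligonucleotide moved the group far from untransfected cells. ASNS was at 982, 1049 and 1085 CPM with ASO2 and 988, 902 and 1024 CPM with ASO4, all above the UT libraries. It was the 1 gene called in each comparison, at 0.46 ± 0.12, adjusted p = 0.00413 and 0.36 ± 0.12, adjusted p = 0.025, where 16.1% and 2.13% of all genes were called. Both calls ended when the factor was left out (adjusted p = 0.0514 and 0.145), and the ASO4 call ended in 4 of 6 fits with a library left out. PYCR1 (0.26 and 0.21) and MTHFD2 (0.21 and 0.21) had adjusted p under 0.05 and stayed under the fold minimum. With ASO2 the same held for PSAT1 (0.21) and PHGDH (0.19), and for SHMT2, which was lower (−0.23 ± 0.05, adjusted p = 0.00054). Both oligonucleotides are set against the same UT libraries, without a delivery control, so oligonucleotide and delivery cannot be told apart. ASO2 and ASO4 did not differ by the call rule in any of the 10 genes with edgeR, DESeq2 or limma-trend (12.5% of all genes called by edgeR, 1 of the 10 at an unadjusted p under 0.05). For ASNS the difference was 0.10, with a 95% interval of −0.14 to 0.33.

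Reads of some members can be shared with neighbouring or copied loci. The readthrough locus CZ1P-ASNS, which overlaps ASNS, was at 2.26, 1.27 and 1.85 CPM in WT_NTG and 12.2, 8.97 and 9.53 CPM in WT_S13, against 3.20, 3.45 and 3.55 CPM in N2V7_NTG and 9.45, 7.729 and 9.5 CPM in N2V7_S13. It was thus higher in WT_S13 than in WT_NTG, where ASNS was lower. Over all groups its mean ran from 0.970 CPM in WT_S7 to 13.1 CPM in N2V8_S3. Summing both loci ended 2 of the 26 comparisons in which ASNS was called, those of WT_S13 against UT and of the S4 effect between N2V8 and N2V7. The pseudogene ASNSP1 had group means of 4.001 to 16.7 CPM, and MTHFD2P1 was listed at 0 in all libraries.

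The 10 genes rose and fell together over groups to different degrees. Pearson's r between the log2 CPM group means of 2 members had a median of 0.717 over 45 pairs, from 0.193 to 0.969 (n = 18 groups). Each gene was also set against the mean of the other 9 after scaling, and r was 0.980 for PCK2, 0.961 for ASNS and 0.933 for PHGDH, against 0.563 for PYCR1 and 0.504 for ALDH18A1. The points share effectors, crRNAs, sequencing lane and library scaling, so these are descriptions. Outside the list, the genes whose group means most resembled the members' mean were TSC22D3 (r = 0.957), UBA6-AS1 (0.950), DDIT3 (0.949), SERPINF1 (0.947) and FLJ46906 (0.944). DDIT3 encodes the stress transcription factor CHOP, and TSC22D3 encodes a glucocorticoid-induced leucine zipper protein. Among regulators of the stress response, r was 0.932 for CHAC1, 0.912 for CEBPG and 0.868 for ATF4 mRNA, and 0.318 and 0.137 for the eIF2 kinases EIF2AK4 and EIF2AK3. ATF4 mRNA itself was called in 1 of the 3 NTG comparisons with UT (N2V7, −0.34 ± 0.05) and in none of the 3 comparisons of S13 with NTG. CEBPG, which pairs with ATF4 on DNA, fell in WT_S13 against WT_NTG (−0.36 ± 0.08, adjusted p = 0.000808), and the pseudokinase gene TRIB3 fell there by 0.93 ± 0.14. Of 11 such regulators, 7 fell in that comparison, 1 rose in N2V7_S13 and 3 rose in N2V8_S13 against NTG, beside 10.8%, 11.4% and 2.44% of all genes called.

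Paralogs of the members, which do the same chemistry elsewhere in the cell, were measured too. SHMT1 and MTHFD1, the cytosolic counterparts of the mitochondrial folate enzymes, were called in 0 of 39 comparisons by edgeR. PCK1, the cytosolic carboxykinase, fell in WT_S13 against WT_NTG (−0.65 ± 0.19, adjusted p = 0.0131) and rose in N2V7_S13 against N2V7_NTG (0.79 ± 0.21, adjusted p = 0.00626), in the direction of PCK2. It was at 29.9 CPM in WT_NTG and 13.5 CPM in N2V7_NTG on average, and it was called in 18 of 39 comparisons. PYCR3, another pyrroline-5-carboxylate reductase, fell with S13 in N2V8 cells (−0.39 ± 0.13, adjusted p = 0.0332). ALDH1L1, at mean levels of 0.794 CPM in N2V8_NTG and 1.64 CPM in N2V8_S13, rose there by 1.06 ± 0.35 (adjusted p = 0.0254), and MTHFD2L was called in 5 comparisons, each time higher.

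Another 4 lists of the same pathways were counted beside the members. S13 against NTG called 10.8% of all genes in WT, 11.4% in N2V7 and 2.44% in N2V8. Of 22 tested genes of folate and one-carbon metabolism, S13 against NTG gave 0 calls in WT and 1 higher in N2V8 (ALDH1L1, above), and the list medians were 0.04 in WT, 0.09 in N2V7 and −0.06 in N2V8. MTHFD1L, the mitochondrial formate-producing enzyme, rose in N2V7 (0.35 ± 0.07) and was chosen for mention after its value was seen. Of 10 tested genes of serine use and sulfur amino acids, 1 rose in WT (BPGM, 0.46 ± 0.06) and 1 in N2V7 (SARS1, the seryl-tRNA synthetase, 0.33 ± 0.05), and 0 were called in N2V8. Of 14 tested genes of aspartate, glutamate and proline, 1 rose and 1 fell in WT, 2 rose in N2V7 and 1 fell in N2V8. ASS1, argininosuccinate synthase, fell in WT (−0.70 ± 0.07, adjusted p = 4.4e-10) and rose in N2V7 (0.40 ± 0.07). Of 9 genes around phosphoenolpyruvate and pyruvate, 1 rose and 2 fell in WT, 1 rose in N2V7 and 0 were called in N2V8. In WT_S7 against WT_NTG, where 19.2% of all genes were called, 5 of the 10 serine and sulfur genes fell. Among them were SRR, serine racemase (−0.83 ± 0.12), and SDSL (−0.85 ± 0.27). SDSL was near the floor, at mean levels of 1.37 CPM in WT_S7 and 2.50 CPM in WT_NTG. The list median was −0.37 against 0.00 over all genes. The folate list had 2 lower and a median of 0.03 in that comparison. The aspartate, glutamate and proline list had 3 higher and 3 lower there, with a median of −0.08. The phosphoenolpyruvate and pyruvate list had 1 higher and 0 lower, with a median of 0.14.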

How the data were processed

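RNA of 54 HEK293T cultures (18 groups of 3 libraries) was sequenced. The deposited values are estimated counts per gene: per the study's methods, the authors quantified spliced NCBI transcripts of GRCh38 with Salmon 1.5.2 and scaled them through tximport. Reads shared by near-identical loci are split by that estimate. Counts were rounded and filtered with filterByExpr, which left 15378 of 38137 genes. Depth was 9546826 to 15099153 counts.

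All 54 libraries entered 1 edgeR 4.0.16 quasi-likelihood fit (robust, TMM) with a term per group and 1 RUVr factor, in R 4.3.3 with limma 3.58.1. That factor accounted for 23.5% of what the groups left unexplained, mostly through N2V7_S4 (95.6% of the squared weights). P-values were adjusted (Benjamini-Hochberg) over all genes and all comparisons of a family. A gene was called at a fold over 1.25 and adjusted p under 0.05. The study describes its replicates as biologically independent. Replicate numbers did not pair libraries (mean residual correlation 0.0011 within a number). No libraries were identical. The scripts were tested on simulated data.

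Alternatives were DESeq2 1.42.0, its size factors, limma-trend, no factor, only the compared libraries, no filter, other thresholds, a replicate block and leaving out libraries. The members and lists were chosen with earlier results of these data known. Named genes are the 10 members, their paralogs, the 2 largest called changes of each pathway list in a family, regulators for values side by side, loci that overlap a member, and the 5 genes most like the members' mean over groups. Promoters came from RefSeq (GRCh38.p14). Some genes of the paralog and pathway lists are not reported here.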

Additional observations from a re-analysis of the deposited data

Results flagged for a closer look

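For 9 of the 10 genes, the effect of crRNA-13 differed between a high-fidelity form and WT RfxCas13d by the interaction term. The shares of all genes called were 14.9% for N2V7 and 18.3% for N2V8. Without the factor, the calls of PYCR1 in both and of PHGDH and SHMT2 in N2V8 ended. Each term contains the NTG difference between effectors, and no member was called between effectors at crRNA-13. On the log2 scale, N2V7 minus WT was 1.35 for ASNS, 0.73 for PSAT1, 0.46 for PHGDH, 0.63 for PSPH, 0.68 for SHMT2, 0.55 for MTHFD2, 1.32 for PCK2, 0.80 for ALDH1L2 and 0.47 for PYCR1. N2V8 minus WT was 1.35 for ASNS, 0.66 for PSAT1, 0.35 for PHGDH, 0.55 for PSPH, 0.44 for SHMT2, 0.40 for MTHFD2, 1.38 for PCK2, 1.10 for ALDH1L2 and 0.44 for PYCR1.

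The effect of S3 differed from WT by 0.82 for ASNS and 0.73 for PCK2 in N2V7, and by 0.61 for ASNS and 0.65 for PCK2 in N2V8. Of these, both PCK2 calls and the ASNS call in N2V8 ended without the factor. The effect of S7 differed by 2.20 for ASNS and 2.41 for PCK2 in N2V7, and by 2.41 for ASNS and 2.71 for PCK2 in N2V8. Between N2V8 and N2V7, the S7 effect on ALDH1L2 differed by 0.53.

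The effect of S4 differed from WT by 0.63 for ASNS and −0.47 for PYCR1 in N2V7, and by 1.11 for ASNS and 1.12 for PCK2 in N2V8. Between N2V8 and N2V7 it differed by 0.48 for ASNS, 0.93 for PCK2 and 0.74 for PYCR1. These last 3 calls and that of PYCR1 in N2V7 ended without replicate 2 of N2V7_S4. Groups of 3 libraries were not tested for single outlying libraries.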

How the results depend on the processing

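Direction and call stayed the same for all 177 gene results tried under limma-trend and for 175 under DESeq2. Leaving out the factor ended 29 calls, and fitting the compared libraries alone ended 22. The cause was not tested. In that last fit N2V7_S13 against N2V7_NTG gave 3 called members in place of 6, and N2V7_S4 against N2V7_NTG gave 1 in place of 6. With no minimum fold change, the counts were 3 for WT_NTG against UT (0 as reported), 8 for WT_S13 against WT_NTG (3), 1 for ASO2 against ASO4 (0), 9 for the oligonucleotides against UT (2) and 23 for S13 against NTG over the effectors (14). That looser rule can call more of all genes as well, by a share not reported here, so these counts are not read as results about the members. The oligonucleotide count was 1 at an adjusted p under 0.01, 1 when adjusted within each comparison and 0 without the factor. Without the factor, the count of differences between effectors in the S3, S4 or S7 effect was 28 in place of 43. For the other alternative fits in this report, the share of all genes called is not reported here either. Their counts show how calls depend on the processing and are not read as results about the members.

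Without replicate 2 of N2V7_S4, PYCR1 turned from lower to higher in N2V7_S4 against N2V7_NTG (0.082, with −0.55 as the other end of the range over libraries left out) and in the S4 effect of N2V7 minus WT (0.13, range from −0.50). That fit ended 3 calls without a change of sign. The calls of the 2 PYCR1 results that changed sign ended as well. That fit is not part of the next tally. Of 161 called gene results, 24 lost the call in at least 1 fit with a library other than N2V7_S4 replicate 2 left out. Those fits kept the factor and the dispersion trend of the full fit. The counts then ran from 4 to 6 for N2V7_S13 and from 3 to 5 for N2V8_S13 against NTG, and from 1 to 2 for the oligonucleotides. Of the 6 called genes each for the S3 and the S4 effect of N2V7 minus WT, 3 kept the call without replicate 2 of N2V7_NTG.

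Replicate numbers are shared by name only. With a replicate block the count for N2V7_S13 against N2V7_NTG was 6, and none of the 177 gene results changed its call. Without the low-count filter every one of 27878 genes had an infinite prior df, so its calls are not read. PSPH summed with PSPHP1 was not run. Differences under the fold minimum are not called at any depth.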
